A study of Homo sapiens with 9 samples.

Results

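CD3D, SH2D1B and CD52 are genes of lymphoid cells whose transcripts were present in K562 cells and were lower after siRNA against UPF1. They are 3 of the 58214 genes in the data, and they were chosen by their measured fall with UPF1 siRNA, so their values in that contrast are given as a description with no test. Poly(A) RNA was sequenced from K562, a human erythroleukaemia cell line that the labels spell K652, grown in RPMI with fetal calf serum. All groups were transfected with siRNA, were transfected again with the same siRNA during the culture and were harvested on day 4. The SCR group received a non-targeting siRNA and has the treatment WT in its labels, and the other groups received siRNA against DHX34 or against UPF1, with 3 libraries in each group. Knockdown by siRNA lowers a transcript and does not remove it. The study's methods speak of biological replicates, but the labels do not say that the libraries came from separate cultures, so p-values measure the spread between these libraries.

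CD3D is the delta chain of CD3, the signalling part of the T cell receptor, and is paired with CD3E in the assembled complex. SH2D1B, also called EAT-2, is an SH2 adaptor of the SAP family that binds the tails of SLAM receptors, best known in natural killer (NK) cells. CD52 is a very short peptide carried on a glycosylphosphatidylinositol (GPI) anchor at the surface of lymphocytes and is the target of the antibody alemtuzumab. UPF1 is the core helicase of nonsense-mediated decay (NMD), which degrades transcripts with premature stop codons, and DHX34 is an RNA helicase that has been linked to NMD and to pre-mRNA splicing.

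The sequences before the start sites of the genes are shown first because the 3 genes fell together in one contrast. Each run holds the 250 bases upstream of the RefSeq start on GRCh38.p14, 5′ to 3′ on the strand of the gene. Capitals mark matches, on either strand, to core letters of 3 motif families. The letters searched for the GATA family were GATAA. Those for the RUNX family were TGTGGT. Those for the ETS family were GGAAG.
CD3D, chr11:118342706-118342955, minus strand: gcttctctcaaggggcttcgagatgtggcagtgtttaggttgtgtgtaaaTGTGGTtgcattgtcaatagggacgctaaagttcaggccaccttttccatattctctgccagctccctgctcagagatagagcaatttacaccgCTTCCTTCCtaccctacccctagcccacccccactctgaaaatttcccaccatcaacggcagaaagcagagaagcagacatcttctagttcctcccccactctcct
SH2D1B, chr1:162412137-162412386, minus strand: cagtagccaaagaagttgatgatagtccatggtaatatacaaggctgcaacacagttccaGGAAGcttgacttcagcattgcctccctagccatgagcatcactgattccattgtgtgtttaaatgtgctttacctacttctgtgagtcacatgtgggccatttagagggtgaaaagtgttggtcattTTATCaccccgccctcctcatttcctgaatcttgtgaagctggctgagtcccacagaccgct
CD52, chr1:26317708-26317957, plus strand: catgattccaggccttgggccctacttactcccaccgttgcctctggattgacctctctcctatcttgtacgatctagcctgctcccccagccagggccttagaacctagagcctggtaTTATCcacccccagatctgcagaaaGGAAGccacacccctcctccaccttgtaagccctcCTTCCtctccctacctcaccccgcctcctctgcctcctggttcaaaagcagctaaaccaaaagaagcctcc
GATAA was found before SH2D1B and CD52 and is held by 20.4% of 35116 upstream sequences of the same length. TGTGGT was found before CD3D and is held by 11.0% of them. GGAAG was found before all 3 genes and is held by 65.1%. The 2 GGAAG matches before CD3D share 1 base. A match says only that the letters are there.

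The siRNA targets were checked first. DHX34 had 73.6 ± 1.15 CPM (expected counts scaled to the TMM-adjusted library size, SD, n = 3) in SCR and 31.4 ± 2.26 after DHX34 siRNA, a log2 fold change of -1.23 (edgeR quasi-likelihood test, Benjamini-Hochberg adjusted p = 3.33e-07). UPF1 had 261.3 ± 8.31 CPM in SCR and 105.6 ± 1.58 after UPF1 siRNA, a log2 fold change of -1.31 (edgeR, adjusted p = 2.41e-10). The libraries held 73478797 to 103625443 expected counts, and a gene was called at an adjusted p of at most 0.005. Against SCR, edgeR called 12.4% of 17184 genes up and 12.9% down after UPF1 siRNA, and 5.54% of 17004 genes up and 4.86% down after DHX34 siRNA. The median log2 fold change over all tested genes was 0.02 in both contrasts. The erythroid identity of the line was visible in all groups. All 18 listed erythroid markers were above 1 TPM (transcript abundance relative to all transcripts, corrected for length) on average, and their summed level was 35110 to 36480 TPM in SCR, 31670 to 33480 after DHX34 siRNA and 21670 to 22320 after UPF1 siRNA. After UPF1 siRNA 14 of the 18 fell and 1 rose, with a median log2 fold change of -0.45, among them the embryonic globins HBE1, with a log2 fold change of -1.11, and HBZ, with -0.91. After DHX34 siRNA 6 of the 18 fell, with a median of -0.12, and none rose by edgeR, where 3 were higher at an unadjusted p under 0.05 and DESeq2 called 1 up. Whether this change has a part in the values below was not tested.

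CD3D (ENSG00000167286, chromosome 11, 118339075 to 118342705, minus strand) had 10.7, 10.3 and 10.7 CPM in the SCR libraries. It had 10.1, 9.42 and 8.67 CPM after DHX34 siRNA. It had 3.45, 3.16 and 2.63 CPM after UPF1 siRNA. Every UPF1 library lay far below every library of the other groups, and the DHX34 libraries all lay below the SCR libraries, the nearest by a small margin. The log2 fold change was -1.79 (SE 0.104) after UPF1 siRNA, which is 3.46-fold lower, and -1.60 (SE 0.113) when the UPF1 libraries were set against the DHX34 libraries. After DHX34 siRNA the log2 fold change against SCR was -0.17 (95% interval -0.35 to 0.00281; edgeR, adjusted p = 0.142), so CD3D was not called. Its direction after DHX34 siRNA depends on how isoform length enters, since length-scaled counts gave 0.14 and limma on TPM gave 0.28. In bulk RNA, fewer cells that carry a transcript and less of it per cell cannot be told apart.

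SH2D1B (ENSG00000198574, chromosome 1, 162395268 to 162412138, minus strand) had 7.14, 8.39 and 8.96 CPM in SCR. It had 10.7, 9.66 and 8.60 CPM after DHX34 siRNA. It had 2.52, 2.63 and 2.69 CPM after UPF1 siRNA. The UPF1 libraries lay close together and below all others, and the SCR and DHX34 libraries overlapped. The log2 fold change was -1.65 (SE 0.108) after UPF1 siRNA, 3.14-fold lower, and -1.87 (SE 0.102) against the DHX34 libraries. Against SCR the DHX34 libraries gave 0.24 (95% interval 0.00242 to 0.48; edgeR, adjusted p = 0.132), which did not pass the threshold. Over the 14 alternatives this value ran from 0.15 without SCR replicate 1 to 0.46 with limma on TPM, and none passed. In TPM the DHX34 libraries, at 5.87 to 6.58, did not overlap SCR, at 4.08 to 4.53, and their mean was 142% of SCR against 118% in CPM. TPM was shifted upwards after DHX34 siRNA for tested genes in general, with a median log2 fold change of 0.13 by limma on TPM.

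CD52 (ENSG00000169442, chromosome 1, 26317958 to 26320523, plus strand) had 13.1, 11.7 and 12.8 CPM in SCR. It had 18.4, 17.3 and 15.4 CPM after DHX34 siRNA. It had 4.59, 4.63 and 5.27 CPM after UPF1 siRNA. The groups did not overlap, with the DHX34 libraries above SCR and the UPF1 libraries below it. The log2 fold change was -1.38 (SE 0.0832) after UPF1 siRNA, 2.61-fold lower, and -1.80 (SE 0.0877) against the DHX34 libraries. After DHX34 siRNA CD52 rose against SCR, with a log2 fold change of 0.44 (95% interval 0.26 to 0.62; edgeR, adjusted p = 0.00259). The call was lost when any single library was left out other than DHX34 replicate 3: the log2 fold change was 0.47 without SCR replicate 1 (adjusted p = 0.0081), 0.39 without SCR replicate 2 (adjusted p = 0.0119), 0.45 without SCR replicate 3 (adjusted p = 0.0108), 0.38 without DHX34 replicate 1 (adjusted p = 0.0137) and 0.42 without DHX34 replicate 2 (adjusted p = 0.00987), all from edgeR. The tested contrast and the one that chose the genes share the SCR libraries.

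**Figure D1:**
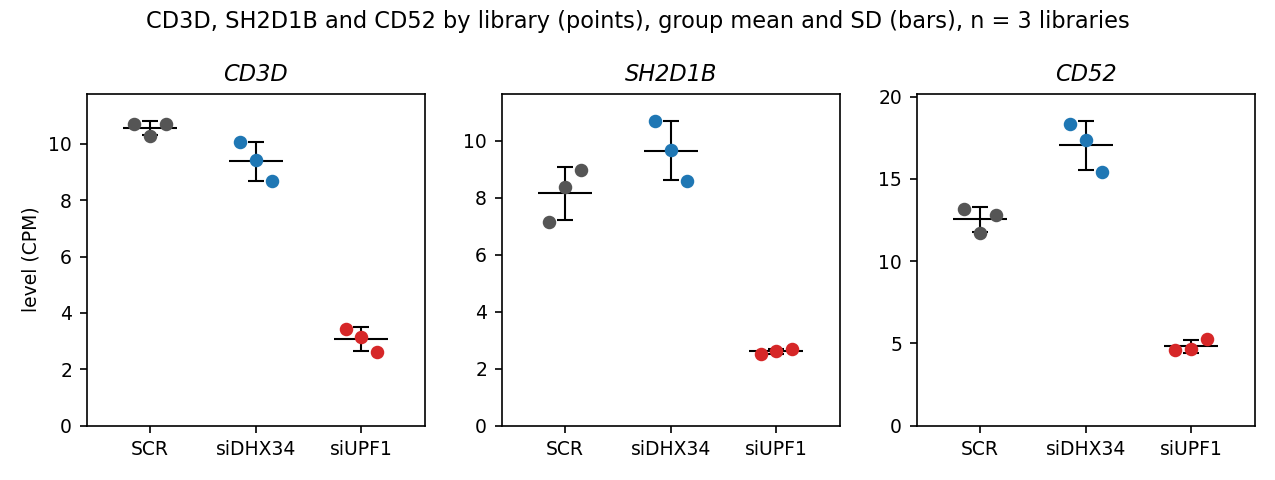
Level of CD3D, SH2D1B and CD52 in CPM (vertical axes from 0) in each library (points) of the SCR, siDHX34 and siUPF1 groups, with the group mean and SD as bars (n = 3). The siUPF1 libraries lie below all others for each gene, and the siDHX34 libraries lie above SCR for CD52 alone.

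All 3 genes passed the filter on low counts in both contrasts. After UPF1 siRNA all 3 had groups that did not overlap, beside 50.5% of all tested genes, a property that their choice fixed. After DHX34 siRNA CD3D and CD52 did, beside 41.5% of all tested genes, and 1 of the 3 was called. Among the 2134 genes called down after UPF1 siRNA whose mean over the 9 libraries reached 5 CPM, CD3D, SH2D1B and CD52 were the 3 with the largest fall, and UPF1 itself came next with -1.31. Among all 2214 genes called down they were at places 18, 21 and 27. The smallest fall of the 3, in CD52, was thus close to that of the targeted transcript. These places follow largely from the choice of the genes on this same contrast. After UPF1 siRNA CD3D, SH2D1B and CD52 had means of 3.079, 2.615 and 4.831 CPM. They reached a mean of 5 CPM only through the other groups.

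Compared per length, the order of levels was CD52, CD3D, SH2D1B in every group, with no overlap between neighbours. In SCR, CD52 was at 55.3 ± 2.15 TPM, CD3D at 22.9 ± 0.131 TPM and SH2D1B at 4.35 ± 0.24 TPM (SD, n = 3). After UPF1 siRNA they were at 24.4 ± 2.08, 9.01 ± 3.19 and 1.68 ± 0.28 TPM, which is 44.2%, 39.4% and 38.5% of the SCR mean. On the CPM scale the same levels were 38.5% for CD52, 29.1% for CD3D and 32.0% for SH2D1B. After DHX34 siRNA the CD3D mean was 123% of SCR in TPM and 88.8% in CPM, so the scales point in opposite directions for this gene. Most of that rise in TPM lay in CD3D-203, a short form with few counts that is described below.

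The gene sums were then resolved into annotated isoforms. The files hold 5 transcripts of CD3D, 2 of SH2D1B and 3 of CD52, and none of them is annotated as an NMD substrate. CD3D-201, the full-length coding form, had 13.8, 13.6 and 14.4 TPM in SCR. It had 13.5, 12.6 and 13.4 TPM after DHX34 siRNA and 4.79, 5.38 and 3.89 TPM after UPF1 siRNA. It was thus at 33.7% of its SCR mean after UPF1 siRNA, and its DHX34 and SCR libraries adjoined, with the DHX34 libraries below all SCR libraries.

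CD3D-202 is a coding form without exon 3, which encodes the membrane-spanning segment of the chain. The exon lies at chr11:118339775-118339906 on the minus strand of GRCh38, is 132 bases long and so adds 44 codons without a shift of frame. It is shown because CD3D-201 holds it and CD3D-202 does not. The annotated forms also differ at their ends, with 861 and 476 bases in the files.
CD3D exon 3: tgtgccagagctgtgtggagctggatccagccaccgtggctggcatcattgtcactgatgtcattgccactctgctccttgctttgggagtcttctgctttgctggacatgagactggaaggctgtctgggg
CD3D-202 had 6.07, 6.94 and 4.29 TPM in SCR, 7.44, 7.89 and 5.22 TPM after DHX34 siRNA and 2.77, 0.372 and 1.79 TPM after UPF1 siRNA. The UPF1 libraries were again below all others, at 28.5% of the SCR mean, and the SCR and DHX34 libraries overlapped. CD3D-201 and CD3D-202 were thus low in the same libraries. The third coding form, CD3D-204, was at 0.299 to 0.941 TPM in SCR and 0 to 0.487 TPM after UPF1 siRNA, from 0 to 17.9 expected counts in all libraries, and these ranges overlapped.

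CD3D-203, annotated as a retained intron form of 257 bases, did not follow the gene. It had 1.60, 1.21 and 2.67 TPM in SCR, 8.09, 9.64 and 2.77 TPM after DHX34 siRNA and 4.53, 0.639 and 1.79 TPM after UPF1 siRNA. These values rest on 2 to 26.6 expected counts a library over an effective length of 36 bases, so 1 count weighs far more in TPM than for the other forms. From SCR to DHX34 siRNA the mean of CD3D-203 went from 1.83 to 6.84 TPM, and that of the whole gene from 22.9 to 28.2 TPM. The mean of CD3D-201 went from 13.9 to 13.15 TPM. Most of the rise of CD3D in TPM thus lay in CD3D-203. The share of CD3D-201 in the TPM of the gene was 60.7% ± 1.93 in SCR and 47.9% ± 10.4 after DHX34 siRNA (exact two-sided permutation test, p = 0.2; the smallest p that 3 against 3 allows is 0.1). By expected counts the shares were 84.0% and 80.1% (exact permutation test, p = 0.3). After UPF1 siRNA the share was 56.3% ± 21.8 by TPM and 84.8% ± 9.27 by counts, a spread that covers the SCR values.

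SH2D1B-201, the coding form, had 3.13, 3.93 and 4.03 TPM in SCR, 5.34, 4.71 and 4.41 TPM after DHX34 siRNA and 1.33, 1.30 and 1.42 TPM after UPF1 siRNA. The 3 groups did not overlap, unlike the CPM of the gene, though TPM was shifted upwards in general after DHX34 siRNA, as given above. SH2D1B-202, a retained intron form, had 0.945, 0.51 and 0.504 TPM in SCR, 0.797, 1.87 and 1.46 TPM after DHX34 siRNA and 0.166, 0.696 and 0.122 TPM after UPF1 siRNA, from 3.67 to 40.8 expected counts. Here 1 UPF1 library lay within the SCR range. CD52 was carried by 1 transcript, CD52-201, which had 56.9, 52.8 and 55.7 TPM in SCR, 89.4, 84.9 and 78.0 TPM after DHX34 siRNA and 23.0, 23.3 and 26.8 TPM after UPF1 siRNA. It held 99.7% of the TPM of the gene in SCR, 99.2% after DHX34 siRNA (exact permutation test, p = 0.3) and 99.8% after UPF1 siRNA. The share of SH2D1B-201 was 84.8% in SCR, 77.9% after DHX34 siRNA (exact permutation test, p = 0.2) and 82.0% after UPF1 siRNA.

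**Figure D2:**
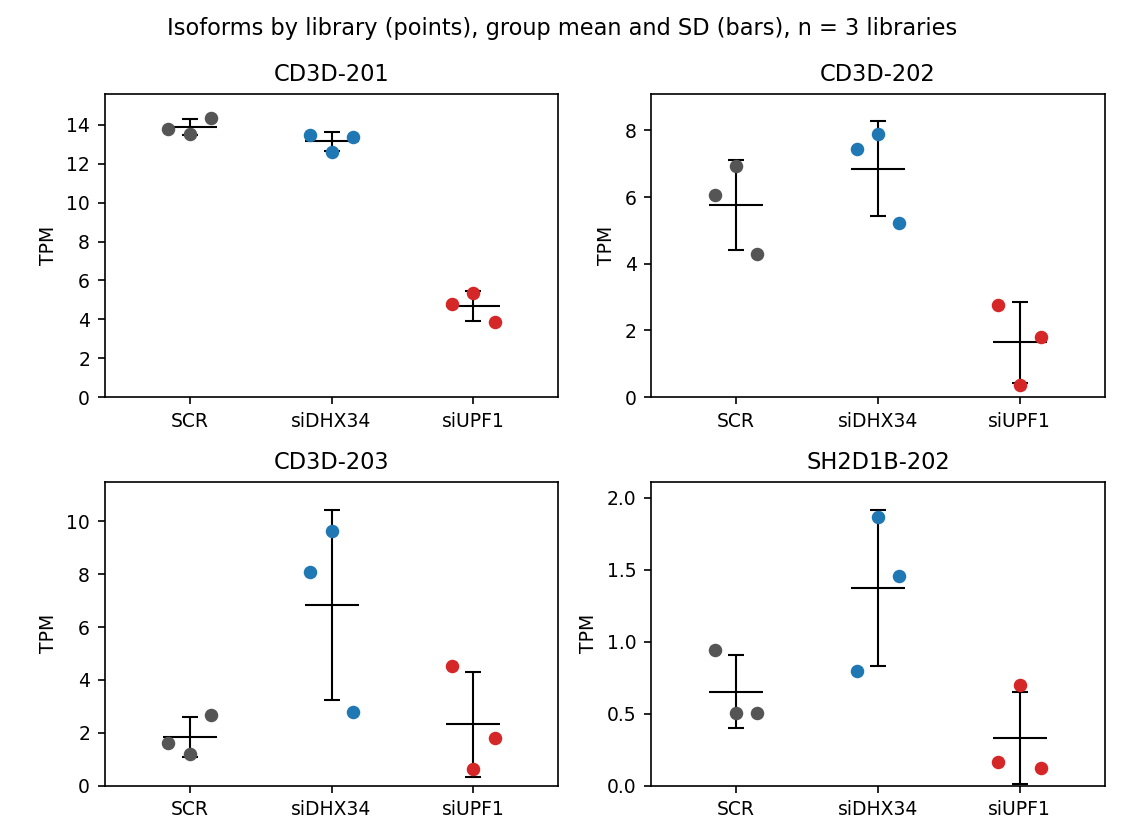
Abundance in TPM (vertical axes from 0) of CD3D-201, CD3D-202, CD3D-203 and SH2D1B-202 in each library (points), with the group mean and SD as bars (n = 3). CD3D-201 and CD3D-202, 2 of the 3 coding forms, are low in every siUPF1 library, whereas CD3D-203 spreads from 2.77 to 9.64 TPM within the siDHX34 group.

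The partners of CD3D in the T cell receptor were examined next. CD3E and CD247, which complete the CD3 signalling complex, were at 0.0806 and 0.0827 TPM in SCR, and CD2, CD5 and the kinase LCK were at 0.037, 0.022 and 0.0198 TPM. CD8A, CD28, THEMIS and TRAT1 were at 0 in all 9 libraries. These genes were named after their values were seen. Of all 35 genes of the list, 23 had a mean under 1 TPM, whereas TRBC1, TRBC2 and LAT were at 9.96, 4.08 and 1.17 TPM in SCR, beside CD3D at 22.9 TPM. CD3G, the gamma chain gene, lies 1.64 kb from CD3D on the opposite strand. It had 20.1, 31.0 and 28.0 expected counts in SCR, 63.0, 54.7 and 29.3 after DHX34 siRNA and 1.03, 5 and 10.1 after UPF1 siRNA. Its UPF1 libraries were the lowest, and the log2 fold change of -2.60 (SE 0.569) passed the test (edgeR, adjusted p = 0.00295). The call was lost when any single library was left out other than UPF1 replicate 3, with values from -2.74 without SCR replicate 1 to -2.21 without UPF1 replicate 1 (edgeR, adjusted p = 0.00736 and 0.0111). Without SCR replicate 2, SCR replicate 3 and UPF1 replicate 2 the values were -2.42, -2.67 and -2.56. It was also lost with length-scaled counts (-2.11; edgeR, adjusted p = 0.0277) and with limma on log2(TPM + 0.5) (-0.29, adjusted p = 0.0267).

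The constant regions of the T cell receptor beta chain, TRBC1 and TRBC2, were the most abundant other chains. TRBC1 had 5.67, 5.34 and 5.10 CPM in SCR, 3.55, 3.33 and 3.31 after DHX34 siRNA and 1.40, 1.09 and 1.41 after UPF1 siRNA. TRBC2 had 2.35, 2.25 and 1.93 CPM in SCR, 1.27, 1.23 and 1.21 after DHX34 siRNA and 0.197, 0.392 and 0.404 after UPF1 siRNA. Both were lowest after UPF1 siRNA, intermediate after DHX34 siRNA and highest in SCR, with no overlap. Against SCR, the log2 fold changes after UPF1 siRNA were -2.06 for TRBC1 (edgeR, adjusted p = 5.08e-07) and -2.70 for TRBC2 (edgeR, adjusted p = 7.24e-06), and both were called under every alternative tried. After DHX34 siRNA they were -0.66 (edgeR, adjusted p = 0.00127) and -0.82 (edgeR, adjusted p = 0.00455). The TRBC2 call after DHX34 siRNA was lost without any single library, at -0.90 to -0.76 (edgeR, adjusted p = 0.00926 to 0.0229), and the TRBC1 call without SCR replicate 1 (-0.62), SCR replicate 2 (-0.67) or DHX34 replicate 2 (-0.65). Both calls were also lost with length-scaled counts, at -0.66 for TRBC1 and -0.81 for TRBC2 (edgeR, adjusted p = 0.00659 and 0.0141), and with limma, at -0.47 and -0.56 (adjusted p = 0.00558 and 0.0132). The TRBC2 call was lost as well with the length trend removed (-0.71) and with all 9 libraries in 1 fit (-0.82; edgeR, adjusted p = 0.00861 and 0.0129). TRBC1 and TRBC2 are near-identical copies, so the division of reads between them is uncertain. CD3D and the beta chain genes thus differed in that CD3D was not called after DHX34 siRNA, a difference that was not tested.

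**Figure D3:**
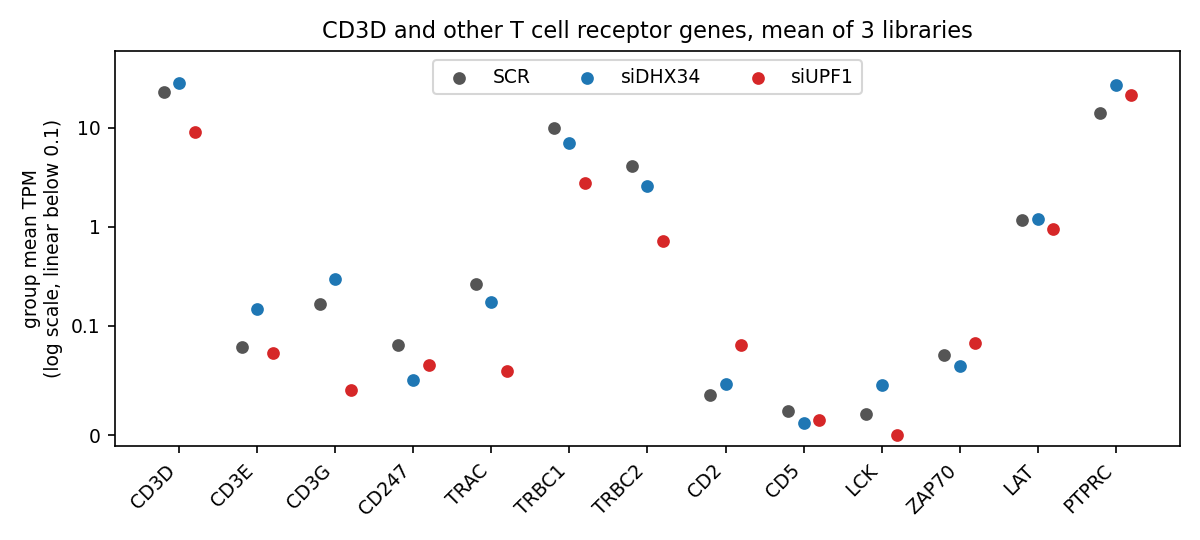
Mean TPM over 3 libraries of CD3D and 12 other T cell receptor and T cell genes in SCR, siDHX34 and siUPF1 (log scale above 0.1, linear below). CD3D, TRBC1, TRBC2 and PTPRC are above 1 TPM in SCR with LAT at 1.17 TPM, and CD3E, CD247, CD2, CD5, LCK and ZAP70 are below 0.1 TPM.

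The wider list of the T cell receptor and its proximal signalling had 35 genes other than CD3D, of which 15 were tested in the UPF1 contrast and 16 in the DHX34 contrast. After UPF1 siRNA 2 rose and 4 fell, with a median log2 fold change of -0.11. After DHX34 siRNA 3 rose and 3 fell, with a median of 0.13. Beside these and the list counts below, 12.4% of all tested genes were called up and 12.9% down after UPF1 siRNA. After DHX34 siRNA the shares were 5.54% and 4.86%. A count near these shares says nothing particular about a list. PTPRC, the CD45 phosphatase of blood cells, rose in both contrasts, by 0.80 after DHX34 siRNA (edgeR, adjusted p = 9.93e-07) and by 0.42 after UPF1 siRNA (edgeR, adjusted p = 2.73e-06). VAV1, an exchange factor downstream of the receptor, rose by 0.90 after DHX34 siRNA (edgeR, adjusted p = 1.46e-05) and fell after UPF1 siRNA with -0.41 (edgeR, adjusted p = 0.000542), a call lost with length-scaled counts (-0.39) and limma (-0.15). The members of the list thus moved in both directions.

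For SH2D1B the list held SLAM receptors, the other SAP adaptors and their effectors, with 16 of 22 genes tested. After DHX34 siRNA 4 rose and none fell by edgeR, where 2 fell at an unadjusted p under 0.05 and DESeq2 called 2 down. After UPF1 siRNA 2 rose and 2 fell. The medians were 0.12 and 0.04. FYN, CSK, PLCG1 and VAV1 are also in the T cell receptor list. The calls of PLCG1 and VAV1 are thus counted in both lists, and the counts are not separate. INPP5D, the lipid phosphatase SHIP1, had 1.94, 2.72 and 2.81 CPM in SCR, 9.41, 9.66 and 9.05 after DHX34 siRNA and 2.87, 2.46 and 2.34 after UPF1 siRNA. It rose after DHX34 siRNA by 1.91 (edgeR, adjusted p = 6.84e-06), and its UPF1 and SCR libraries overlapped. CD84, a SLAM receptor, had 1.17, 1.15 and 1.59 CPM in SCR, 3.57, 3.99 and 4.03 after DHX34 siRNA and 2.56, 2.56 and 2.3 after UPF1 siRNA. It was above SCR in both knockdowns, with a rise of 1.56 after DHX34 siRNA (edgeR, adjusted p = 8.38e-05), whereas SH2D1B was below SCR after UPF1 siRNA.

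For CD52 the lists held other GPI-anchored leukocyte proteins and the enzymes that make and attach the anchor. Of 16 tested GPI-anchored proteins 1 rose and 3 fell after UPF1 siRNA, with a median of -0.09, and of 15 tested 3 rose and 1 fell after DHX34 siRNA, with a median of 0.08. CD24, a short GPI-anchored protein of blood cells, was, like CD52, called up in one contrast and low in the other. It rose by 0.74 after DHX34 siRNA (edgeR, adjusted p = 8.73e-05) and was at -0.45 after UPF1 siRNA (edgeR, adjusted p = 0.000235), a call lost with length-scaled counts (-0.38) and limma (-0.16). The largest called change of this list after UPF1 siRNA went the other way. It was that of ULBP1, which rose by 1.0 (edgeR, adjusted p = 0.000156) and was called under all 14 alternatives. Of 30 tested genes of anchor synthesis 6 rose and 2 fell after UPF1 siRNA, with a median of 0.06, among them PIGS, a subunit of the transamidase, which rose by 0.29 (edgeR, adjusted p = 1.45e-05), and DPM3, of the dolichol-phosphate-mannose synthase, which was at -0.53 (edgeR, adjusted p = 1.44e-05). None was called after DHX34 siRNA by edgeR, where 6 were higher and 4 lower at an unadjusted p under 0.05 and DESeq2 called 2 up and 1 down, and the median was -0.02.

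Lymphoid transcription factors and markers of other lymphoid cells were read for the same libraries. Of 26 tested factors 5 rose and 3 fell after UPF1 siRNA and 4 rose and 1 fell after DHX34 siRNA, with medians of 0.08 and 0.07. RUNX1 rose after UPF1 siRNA by 0.49 (edgeR, adjusted p = 9.3e-07), and ID2, an inhibitor of helix-loop-helix factors, was at -0.74 after DHX34 siRNA (edgeR, adjusted p = 0.000346). IKZF1 (Ikaros) was at -0.42 after UPF1 siRNA (edgeR, adjusted p = 2.08e-05), a call lost with length-scaled counts (-0.09) and a direction that limma on TPM turned to 0.13. NK and cytotoxic markers summed to 6.83 to 8.47 TPM in SCR, 11.5 to 14.4 after DHX34 siRNA and 5.69 to 6.99 after UPF1 siRNA. Among them 22 of 26 had a mean under 1 TPM, 8 were tested after UPF1 siRNA and none was called by edgeR, where 3 were lower at an unadjusted p under 0.05, DESeq2 called 2 down and the median was -0.29. After DHX34 siRNA 1 of 9 rose, with a median of 0.11: PRF1, the pore-forming perforin, rose by 1.34 after DHX34 siRNA (edgeR, adjusted p = 0.000109). B cell markers summed to 3.98 to 5.48 TPM in SCR, 7.94 to 9.05 after DHX34 siRNA and 4.63 to 5.59 after UPF1 siRNA, with 24 of 26 under 1 TPM. Of the 9 tested after UPF1 siRNA none was called by edgeR, where 1 was higher and 2 lower at an unadjusted p under 0.05, DESeq2 called 1 down and the median was -0.30. After DHX34 siRNA 1 of 10 rose, with a median of 0.59. It was CD22, an inhibitory receptor, at 1.21 (edgeR, adjusted p = 0.000876), and its call was lost without SCR replicate 3 (1.14) or DHX34 replicate 1 (1.17). Most markers of other lymphoid cells thus lay low in all groups, and no listed NK or B cell marker was called down by edgeR. Of the listed genes named by the rule, 12 of 21 after DHX34 siRNA and 16 of 24 after UPF1 siRNA were called in all 6 fits that left out 1 library.

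The genes beside CD3D, SH2D1B and CD52 on the chromosome were compared to see whether their surroundings moved with them. Of the 12 nearest tested neighbours, 2 on each side of each gene, none rose and 4 fell after UPF1 siRNA by edgeR, and none passed an unadjusted p under 0.05 upwards or was called up by DESeq2. After DHX34 siRNA 2 rose and none fell by edgeR, where 1 fell at an unadjusted p under 0.05 and DESeq2 called none down. Of all tested genes, edgeR called 12.4% up and 12.9% down after UPF1 siRNA. After DHX34 siRNA the shares were 5.54% and 4.86%. Near CD3D, CD3G was the neighbour with the fall described above, and UBE4A, a ubiquitin ligase 16.9 kb away, was at 0.03 after UPF1 siRNA (edgeR, adjusted p = 0.595). UBE4A rose after DHX34 siRNA by 0.25 (edgeR, adjusted p = 0.00154), a call lost without SCR replicate 1 (0.23), SCR replicate 2 (0.24) or DHX34 replicate 1 (0.24), with length-scaled counts (0.24), with limma (0.39) and with the length trend removed (0.09; edgeR, adjusted p = 0.103). Near SH2D1B, UAP1, which makes UDP-N-acetylglucosamine, was at -0.35 after UPF1 siRNA (edgeR, adjusted p = 4.71e-06), a call lost with limma (-0.31), and C1orf226, 8.46 kb away, was at -0.67 and did not pass (edgeR, adjusted p = 0.00803). UHMK1, a kinase 85.1 kb away, was at -0.23 after UPF1 siRNA (edgeR, adjusted p = 0.00097), a call lost with limma (-0.01) and without SCR replicate 2 (-0.21), UPF1 replicate 1 (-0.20) or UPF1 replicate 2 (-0.23).

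Near CD52, SH3BGRL3 had 98.6, 93.3 and 103.9 CPM in SCR and 62.4, 62.5 and 57.3 after UPF1 siRNA, a log2 fold change of -0.71 (edgeR, adjusted p = 3.39e-07). LIN28A, an RNA-binding protein of stem cells 90.3 kb from CD52, had 1.54, 1.88 and 1.72 CPM in SCR, 4.41, 4.77 and 4.98 after DHX34 siRNA and 1.45, 1.42 and 1.30 after UPF1 siRNA. It rose after DHX34 siRNA by 1.46 (edgeR, adjusted p = 3.77e-05). UBXN11 lies on the opposite strand and overlaps the CD52 gene over 406 bases, with 25 bases of CD52-201 exons inside its own exons. It was at 0.07 after UPF1 siRNA (edgeR, adjusted p = 0.628). Strand was not stated for these libraries, and without it reads from the shared bases cannot be told apart. The neighbours that fell, other than CD3G, had falls smaller than those of the 3 genes. That order was largely fixed, since the 3 genes were chosen by their fall.

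**Figure D4:**
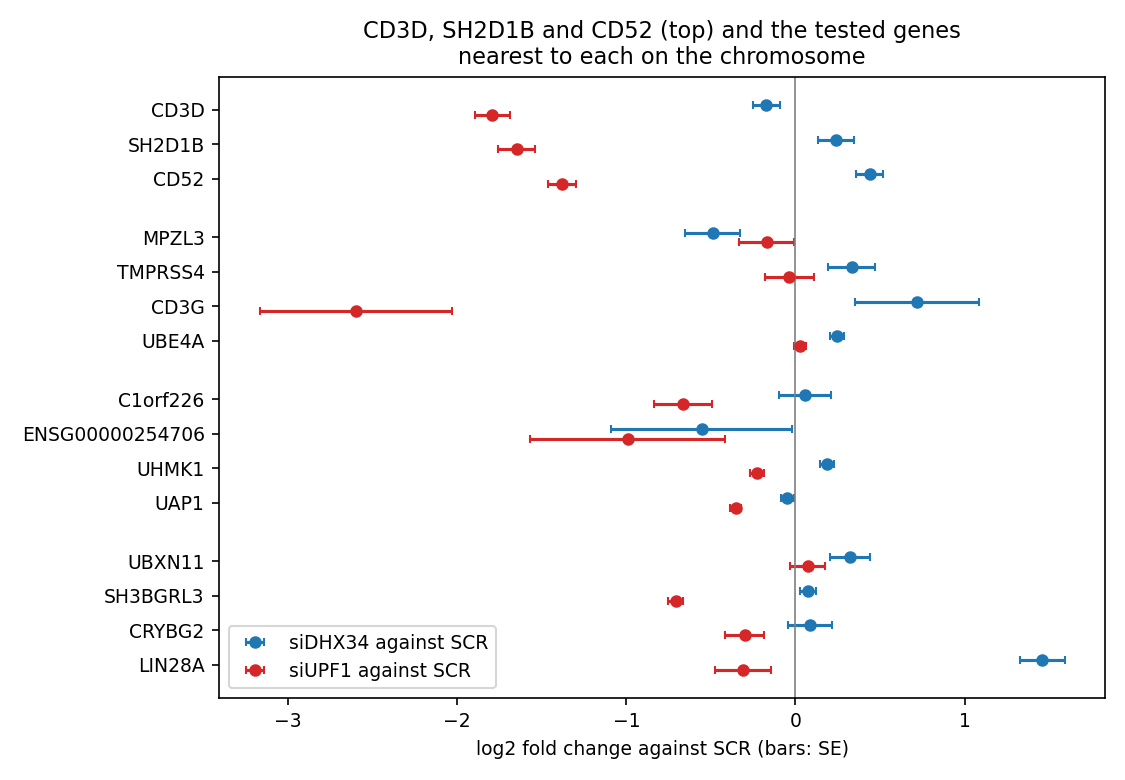
Log2 fold change against SCR (horizontal axis, bars are SE) after DHX34 siRNA (blue) and UPF1 siRNA (red) for CD3D, SH2D1B and CD52 and for the 4 nearest tested genes of each. The 3 genes lie at -1.79, -1.65 and -1.38 after UPF1 siRNA, and of their neighbours CD3G alone lies further left. The 3 genes were chosen by this fall.

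Likeness of pattern was measured as Pearson's r of log2 CPM over the 9 libraries, against 10062 other genes whose mean reached 5 CPM. The libraries fall into 3 groups that differ in treatment, so the values describe order and no more. The 9 libraries include those after UPF1 siRNA, by which the 3 genes were chosen. A high r among the 3 genes therefore partly restates that choice. For CD3D the nearest genes were FAH (r = 0.994), PRCC (r = 0.994) and RAB13 (r = 0.993). For SH2D1B they were CDCP1 (r = 0.995), VARS1 (r = 0.993) and UBA1 (r = 0.993), and for CD52 they were HBBP1, a pseudogene of the beta globin cluster (r = 0.993), PRKACA (r = 0.991) and FAM210B (r = 0.99). The genes most like each in pattern fell less, with log2 fold changes after UPF1 siRNA from -0.82 for HBBP1 to -0.18 for UBA1. This was largely fixed in advance, since the 3 genes had the largest called falls among genes with a mean of 5 CPM. SH2D1B was the 15th most like CD52 (r = 0.984) and the 83rd most like CD3D (r = 0.963), and CD52 was the 262nd most like CD3D (r = 0.932).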

How the data were processed

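Libraries of K562 cells were made from poly(A) RNA. The authors quantified the reads with salmon against Ensembl transcripts on GRCh38, and each deposited table gives an expected count (the reads assigned to a transcript, not always whole), the TPM and the effective length of 203027 transcripts. The authors' deposited gene and splicing tables hold their own comparisons from sleuth and SUPPA2 and were not used. Transcripts were matched by identifier to GENCODE release 44, a later annotation, for 97.906% of transcripts and at least 98.078% of the counts. CD3D-201 is 861 bases in the files and 701 in that release.

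Expected counts were summed per gene, rounded and fitted with edgeR 4.0.16 (R 4.3.3; quasi-likelihood, TMM, low genes removed by filterByExpr at a count of 10) for every pair of groups over their 6 libraries, with Benjamini-Hochberg adjustment over all tested genes. Isoform shares were tested by exact permutation, two-sided, in SciPy 1.17.1. Intervals are 95% intervals from the SE and the fitted degrees of freedom. The fits were tested on simulated data. Depth limits the rarest isoforms, which rest on a few counts.

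The genes and the gene lists were chosen with earlier results of these data known. Named genes were the 3 genes, DHX34 and UPF1, the 2 nearest tested genes on each side, the 3 most alike in pattern, the gene next in the order of falls and, from each list, up to 4 called genes per contrast with the largest change and a mean of at least 1 CPM. Not all of these listed genes are given above, and stability of the call did not decide which were. CD3G, CD3E, CD247 and the T cell genes at or near 0 were named after their values were seen. Alternatives were DESeq2 1.42.0, its size factors, no filter, length-scaled counts, limma 3.58.1 on log2(TPM + 0.5), a replicate block, removal of the gene length trend, all 9 libraries in 1 fit, leaving out each library and a threshold of 0.05.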

Additional observations from a re-analysis of the deposited data

How the results depend on the processing

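After UPF1 siRNA the log2 fold changes of CD3D, SH2D1B and CD52 stayed negative under all 14 alternatives, from -1.88 to -1.35, from -1.74 to -1.16 and from -1.45 to -1.17. Limma on log2(TPM + 0.5) gave -1.35 for CD3D, -1.16 for SH2D1B and -1.165 for CD52, and -1.63 for SH2D1B against the DHX34 libraries. It shifted the median of all genes to 0.17 after UPF1 siRNA and 0.13 after DHX34 siRNA, and relative to that the 3 genes were at -1.52, -1.33 and -1.33. Length-scaled counts gave -1.57 for CD3D, and removal of the gene length trend gave -1.23 for CD52. After DHX34 siRNA CD3D was reversed to 0.14 by length-scaled counts and to 0.28 by limma, and its isoform share differed by -3.88 percentage points by counts against -12.9 by TPM. CD52 after DHX34 siRNA was 0.45 with length-scaled counts (edgeR, adjusted p = 0.0106) and no longer called, and 0.38 to 0.51 when 1 library was left out.

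Replicate numbers did not pair the libraries: same-numbered libraries had correlated deviations of -0.087 to 0.084. After UPF1 siRNA 48.8% of the calls were up with the replicate number as a block, against 49.0% without it. With that block 1007 genes were called after DHX34 siRNA, against 1768 without it, and CD52 after DHX34 siRNA was 0.44 (edgeR, adjusted p = 0.00507). The block also ended the calls of CD3G after UPF1 siRNA at -2.71 (edgeR, adjusted p = 0.00553) and, after DHX34 siRNA, of UBE4A at 0.25 and TRBC2 at -0.81 (edgeR, adjusted p = 0.00578 and 0.0129).

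Over all genes, 1768 were called after DHX34 siRNA, against 3034 with DESeq2, 3396 with no filter, 770 with length-scaled counts, 879 with limma, 4403 at a threshold of 0.05 and 781 to 1785 with 1 library left out, the fewest without SCR replicate 3. After UPF1 siRNA 4345 were called, against 2808 with length-scaled counts, 6917 at 0.05 and 3187 to 3733 with 1 library left out. The share of calls that were up was 53.3% and 49.0%, against 89.4% and 91.9% with limma and 37.9% and 36.8% with the length trend removed. Of the listed genes 15 were up after DHX34 siRNA, against 24 with DESeq2, 27 with no filter, 9 with length-scaled counts, 29 at 0.05 and 9 to 16 with 1 library left out, and 11 were down, against 17 with DESeq2, 18 with no filter, 4 with limma, 18 at 0.05 and 7 to 11 with 1 library left out. After UPF1 siRNA 16 were up, against 10 with length-scaled counts, 29 with limma and 10 to 12 with 1 library left out, and 27 were down, against 17 with length-scaled counts, 12 with limma and 21 to 25 with 1 library left out.

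The other directions that turned were all of genes not called, apart from IKZF1 (0.13) and CD55 (0.0327) with limma after UPF1 siRNA. These were, after UPF1 siRNA, UBE4A at -0.11 with the length trend removed, MPZL3 at 0.12 with limma, TMPRSS4 at 0.11 with length-scaled counts, 0.27 with limma and -0.16 to 0.072 with 1 library left out (0.025 and 0.012 without SCR replicates 1 and 2, 0.072 without UPF1 replicate 2), CRYBG2 at 0.23 with length-scaled counts and 0.45 with limma, and UBXN11 at -0.0493 without SCR replicate 3, where it ran from -0.0493 to 0.19. After DHX34 siRNA they were UAP1 at 0.0613 with limma, UHMK1 at -0.000286 and C1orf226 at -0.0453 with the length trend removed, and C1orf226 at -0.0437 without SCR replicate 1, where it ran from -0.0437 to 0.19 with 1 library left out.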

Other observations

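A pair of lymphoid cytokine receptor genes outside the lists, named after their values were seen, was also lower after UPF1 siRNA. Their values in that contrast, with the lack of overlap, are therefore given as a description with no test. Other receptor genes were not counted, so the pair is given as examples only. Of 17184 tested genes, 2214 were called down. IL10RA, the ligand-binding chain of the interleukin-10 receptor, lies on chromosome 11, 336 kb from CD3D. It had 4.49, 4.29 and 4.70 CPM in SCR, 4.78, 4.42 and 3.76 after DHX34 siRNA and 1.32, 1.98 and 1.67 after UPF1 siRNA. Its UPF1 libraries were below all others, with a log2 fold change of -1.44 (SE 0.151), and it was at -0.06 after DHX34 siRNA (edgeR, adjusted p = 0.778).

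IL2RG, the common gamma chain of several interleukin receptors, had 22.9, 22.0 and 21.6 CPM in SCR, 24.6, 22.2 and 19.2 after DHX34 siRNA and 9.01, 10.9 and 9.86 after UPF1 siRNA. The UPF1 libraries again did not overlap the others, with a log2 fold change of -1.16 (SE 0.0689), and after DHX34 siRNA it was at -0.01 (edgeR, adjusted p = 0.932).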
